A study of Mus musculus with 2 samples.

Results

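CD8 T cells that were not cycling were examined in subcutaneous ovarian tumors of WT and TSK mice. Cells were selected by their own transcript counts: at least 2 UMIs (unique molecular identifiers, each standing for 1 captured RNA molecule) summed over Cd3d, Cd3e, Cd3g and Trac, at least 1 UMI of Cd8a or Cd8b1, no UMI of Cd4 or Csf1r, and fewer than 2 UMIs of Mki67 and Top2a, which mark dividing cells. This selected 277 WT and 154 TSK cells, together 431 of the 4403 cells that passed the cell filter (1442 WT and 2961 TSK). The filter required at least 200 genes and 500 UMIs and at most 10% mitochondrial UMIs, and removed 263 barcodes found in both libraries, none of which met the selection. The levels of the selecting genes are a consequence of the selection and are no finding.

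Both libraries came from tumors grown after injection of 1000000 cells of SO, a syngeneic mouse ovarian cancer line that is p53-/- and carries myc and H-ras, under the skin of female C57BL/6 mice aged 6 to 8 weeks. TSK mice carry an internal duplication of the Fbn1 gene, which encodes fibrillin-1 of the extracellular matrix, and are a model of skin fibrosis. The WT mice were littermates without the duplication and received the same injection. Tumors of 4 mice per genotype were pooled into 1 library, with no sorting for any cell type. There was thus 1 library per genotype and no replicate: no test between genotypes was possible, and every 95% interval in the text covers counting error only. Whether a difference belonged to the genotype, to a mouse in the pool or to the preparation of a library cannot be told apart.

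CD8 T cells recognize peptides presented on MHC class I molecules through a T cell receptor with its CD3 chains and the CD8 coreceptor, and kill target cells with perforin and granzymes. They also release cytokines such as interferon gamma. In tumors, repeated stimulation is known to bring inhibitory receptors such as PD-1 to their surface, while a smaller fraction keeps genes of naive and memory T cells.

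The selected cells carried the markers of their label. Cd3e, Cd8a, Cd8b1, Gzmb and Nkg7 together had 2957 counts per 1000000 UMIs (CPM) in the WT cells and 3664 CPM in the TSK cells, compared with 198 and 22.5 CPM in the other cells of each library. Cd3e, Cd8a and Cd8b1 were used for the selection, so this sum is partly a consequence of it. Gzmb, which encodes granzyme B, and Nkg7, a cytotoxic granule gene, were not used for the selection. Gzmb was at 669.6 CPM (WT) and 659 CPM (TSK), compared with 69.8 and 7.003 CPM in the other cells. Nkg7 was at 915 and 1228 CPM, compared with 61.3 and 7.31 CPM in the other cells. Ncr1, which defines NK cells, and Foxp3, which defines regulatory T cells, were at 0 UMIs in the selected cells of both libraries. The list of 8 CD4 and regulatory T cell markers was not low, however: it summed to 320 CPM (WT) and 168 CPM (TSK), above the 159 and 20.7 CPM of the other cells, and 50 WT and 10 TSK cells had 3 or more of its UMIs. Most of them were of Ikzf2, which is described with the transcription factors and was at 275 and 101 CPM. The 10 NK cell markers summed to 85.4 and 82.1 CPM, below the 653 and 392 CPM of the other cells, and 23 WT and 2 TSK cells had 3 or more of these UMIs. Among them Eomes, a factor that NK cells and CD8 T cells both use, was at 47.8 and 42.9 CPM, compared with 3.31 and 0.975 CPM in the other cells. Near the thresholds, 4 WT and 8 TSK cells had exactly 2 CD3 complex UMIs, 24 and 25 had exactly 1 CD8 UMI, and 59 and 41 had exactly 1 cycling UMI. Outside them, 5 and 7 cells failed only by having 1 CD3 complex UMI, and 23 and 8 failed only by having exactly 2 cycling UMIs.

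The WT cells had more UMIs per cell than the TSK cells. The median was 6661 UMIs and 1958 genes per WT cell and 3167 UMIs and 1274 genes per TSK cell, and the selected cells summed to 1968243 and 535764 UMIs. Over all kept cells the medians were closer, at 7658.5 and 7302 UMIs, and the cause of the difference in the CD8 T cells was not tested. Gm42418, an annotation that overlaps ribosomal RNA sequence, took 26.7% of the WT and 18.0% of the TSK UMIs, and ribosomal protein genes took 11.0% and 15.6%. The Gm42418 share was lower in the TSK library in macrophages as well, at 10.6% compared with 22.5%. Levels below are therefore given as CPM, the UMIs of a gene per 1000000 UMIs of the selected cells, and the part of these composition differences in the results was not tested beyond the other scalings given.

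**Figure D1:**
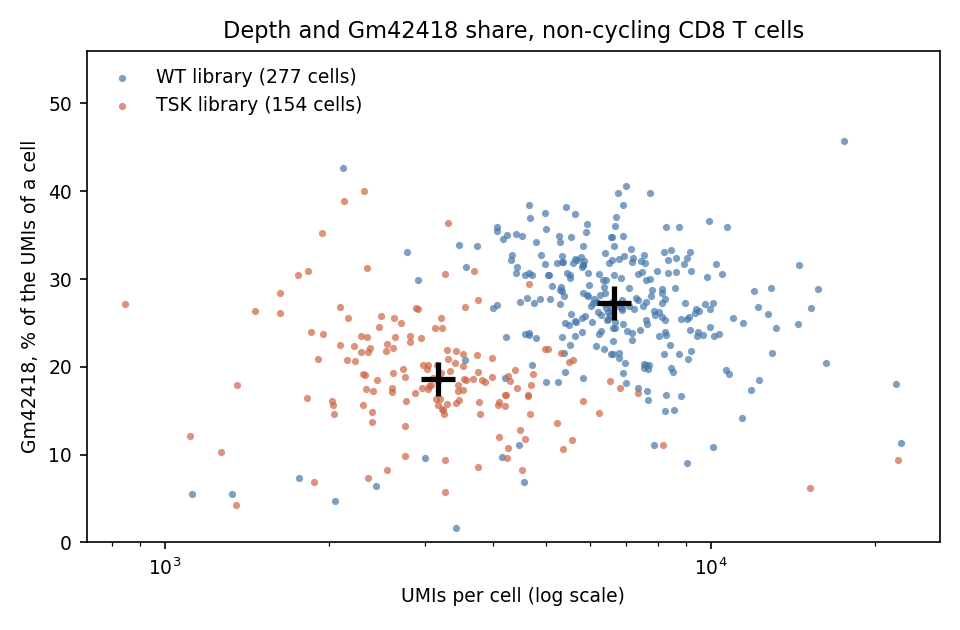
Each point is 1 non-cycling CD8 T cell, with its UMIs on a logarithmic x axis and the percentage of those UMIs from Gm42418 on the y axis. Crosses mark the medians, 6661 UMIs and 27.3% in the WT library (277 cells) and 3167 UMIs and 18.6% in the TSK library (154 cells), and the WT cells lie mostly to the upper right of the TSK cells.

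Markers of other cell types were low in most of the selected cells, but a few cells held many. The 12 macrophage markers summed to 119 CPM (WT) and 172 CPM (TSK), compared with 4622 and 1801 CPM in the other cells, and 15 WT and 4 TSK cells had 3 or more of their UMIs. The 10 cancer cell markers summed to 10.7 and 103 CPM, and reached 3 UMIs in 0 WT and 2 TSK cells. The 10 fibroblast markers summed to 1158 and 2300 CPM. Most of those fibroblast UMIs came from single barcodes: 3 WT cells held 2144 of 2280, and 1 TSK cell with 22012 UMIs in all held 1175 of 1232. This TSK cell, with 17 CD3 complex and 2 CD8 UMIs, and a TSK cell of 15202 UMIs with 16 cancer marker UMIs contributed many UMIs of single genes, and their values are given beside those genes. For example, the first of these held 83 of the 104 TSK UMIs of Ndrg1, a hypoxia-induced gene, and 92 of the 93 TSK UMIs of Mmp3, a matrix protease of fibroblasts.

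Non-cycling CD8 T cells made up 19.2% of the kept WT cells (95% exact binomial interval 17.2 to 21.3%) and 5.20% of the kept TSK cells (4.43 to 6.06%), a log2 ratio of TSK to WT of -1.89 (-2.18 to -1.60). The other T cell classes were lower in the TSK library as well. CD8-negative T cells were 8.32% of kept WT cells and 2.97% of kept TSK cells, and cycling CD8 T cells were 2.91% and 0.709%. As a share of all T cells, defined by the same CD3 minimum, the non-cycling CD8 cells were 60.1% of 461 WT cells (55.5 to 64.6%) and 55.0% of 280 TSK cells (49.0 to 60.9%), with a log2 ratio of -0.13 whose interval, -0.42 to 0.16, included 0. Cycling cells were 42 of the 319 WT CD8 T cells (13.2%) and 21 of the 175 TSK CD8 T cells. Cycling was called at 2 or more UMIs of Mki67 and Top2a without thinning. The TSK cells were shallower, so these shares cannot show that cycling was equal.

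The share of all kept cells also depends on how many other cells each library held. Cells with 3 or more cancer marker UMIs were 7.77% of kept WT cells and 40.4% of kept TSK cells, and without them the CD8 shares were 20.8% and 8.73% (log2 ratio -1.26). When every cell was thinned to 1000 UMIs before the selection, which left out shallower cells (1325 WT and 2698 TSK cells remained), the shares were 7.62% and 2.97% (log2 ratio -1.36). With the upper limit of 10000 UMIs per cell that the study used, they were 27.1% and 8.94% (log2 ratio -1.60). The share was lower in the TSK library under each of these settings. Shares in a dissociated tumor do not give numbers of cells per tumor.

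**Figure D2:**
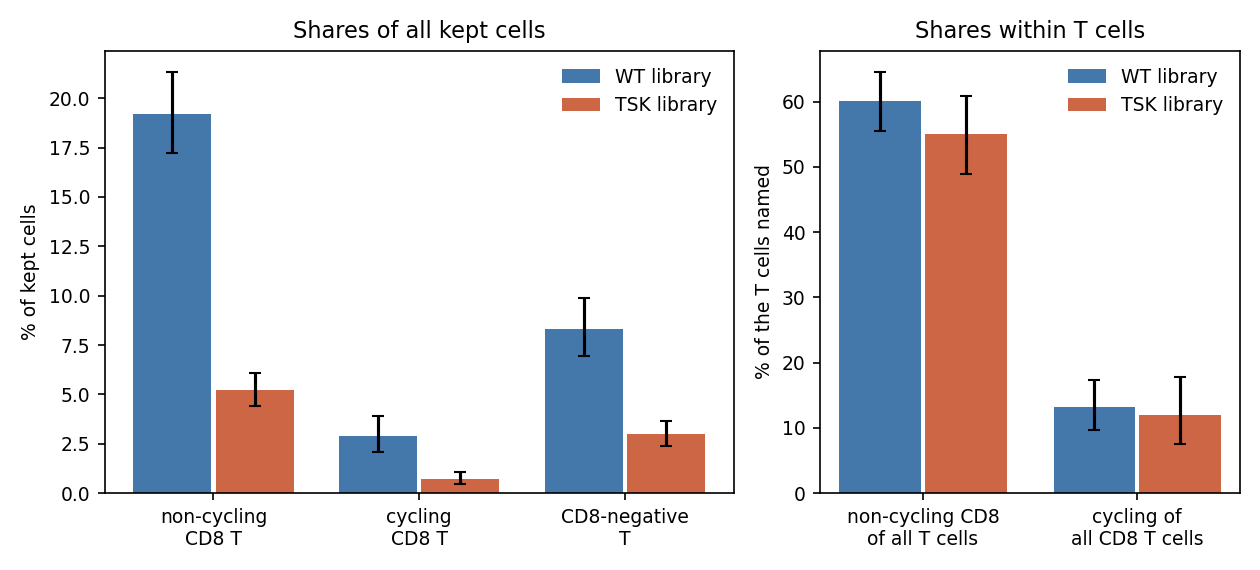
Bars show the percentage of cells in each T cell class in the WT and TSK libraries, of all kept cells on the left and within T cells on the right, and error bars are 95% exact binomial intervals for counting error only. Non-cycling CD8 T cells were 19.2% and 5.20% of kept cells but 60.1% and 55.0% of T cells.

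Gene levels were compared over 5019 genes, those whose UMIs summed to at least 50 over the selected cells of the 2 libraries. Of these, 207 genes (4.12%) were 2-fold or more higher in the TSK cells and 122 (2.43%) were 2-fold or more lower, and the median log2 ratio was 0.136. This split depended on the scaling: with the median ratio set to 0 the counts were 137 higher and 171 lower, and with totals that left out the 6 abundant transcripts Gm42418, Cmss1, Malat1, Cdk8, Camk1d and Lars2 they were 111 and 207, with a median of -0.06. A list whose log2 ratio lies close to the median of all genes is therefore not called higher or lower here.

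Genes of the T cell receptor complex and its signaling differed little. None of the 22 genes was 2-fold higher or lower, their median log2 ratio was 0.16, and their summed level was 8623 and 9885 CPM in the WT and TSK cells. The list includes Cd3d, Cd3e, Cd3g, Trac, Cd8a and Cd8b1, which were used for the selection. Its count, median and sum are therefore partly a consequence of the selection. The genes named next were not used for it. Ptprc, the CD45 phosphatase, was at 1028 and 1105 CPM (log2 ratio 0.10, interval -0.03 to 0.24), and Ptpn22, which restrains receptor signaling, was at 818 and 827 CPM. Trbc2, a constant segment of the receptor beta chain, was at 555 and 806 CPM (log2 ratio 0.54). Trbc1 made up 39.9% of the Trbc1 and Trbc2 UMIs in the WT cells and 38.4% in the TSK cells, with overlapping intervals.

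Over all selected cells, the cytotoxic granule genes were at similar levels in both libraries. None of 16 genes reached 2-fold and the median log2 ratio was -0.01. Their summed level had a log2 ratio of 0.15, but of 0.39 in cells of 3000 to 6000 UMIs and 0.30 in cells thinned to 1000 UMIs. Gzmb (chr14:56258838-56262260, minus strand, GRCm38) was at 669.6 CPM in the WT cells (1318 UMIs) and 659 CPM in the TSK cells (353 UMIs), a log2 ratio of -0.02 (-0.20 to 0.15). In cells of 3000 to 6000 UMIs its log2 ratio was 0.49, and thinned to 1000 UMIs it was 0.07. After each cell was thinned to 500 UMIs, 20.9% of WT cells (16.3 to 26.2%) and 18.8% of TSK cells (13.0 to 25.9%) had a Gzmb UMI, against 0 of 230 WT and 0 of 264 TSK macrophages thinned likewise, which allow shares of up to 1.30% and 1.14% (3 counts of the total). The macrophages were deeper, with medians of 11836.5 and 9204.5 UMIs before thinning. Srgn, the proteoglycan core of the granule, was at 867 and 821 CPM, and Ctsw, a cathepsin of cytotoxic cells, at 334 and 302 CPM. Nkg7 was higher, at 915 and 1228 CPM (log2 ratio 0.42, 0.29 to 0.55). Prf1, which encodes perforin and was named after its values were seen, was at 143 and 256 CPM (log2 ratio 0.84, 0.54 to 1.14). The cells divided among the granzymes in a similar way: at 1000 UMIs per cell, 24.5% of WT and 25.5% of TSK cells had Gzmb without Gzma or Gzmk, and 5.78% and 6.54% had Gzma or Gzmk without Gzmb.

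Among 12 cytokines and chemokines, 1 gene was 2-fold higher and 2 were 2-fold lower in the TSK cells, with a median log2 ratio of 0.05. Ccl5, a chemokine that draws T cells and monocytes, held most of the UMIs of this list, 6394 in the WT and 2156 in the TSK cells, and was at 3249 and 4024 CPM (log2 ratio 0.31). Its direction depended on the cells compared, with a log2 ratio as low as -0.30 in another setting. Tnf, the inflammatory cytokine, was lower, with 92 UMIs (46.7 CPM) in the WT and 9 UMIs (16.8 CPM) in the TSK cells (log2 ratio -1.48, -2.65 to -0.49). Xcl1, which attracts cross-presenting dendritic cells, had 50 WT UMIs (15 cells) and 2 TSK UMIs (2 cells) (log2 ratio -2.77, -5.85 to -0.84). Ifng, named after its values were seen, was at 177 and 127 CPM (log2 ratio -0.48). Spp1, which encodes osteopontin, was at 57.4 and 175 CPM (log2 ratio 1.61), and 79 of its 113 WT UMIs lay in 1 cell. Without the top cell of each library the log2 ratio was 3.20, and it was 3.27 without cells holding markers of another type. Spp1 was at 2166 and 2892 CPM in the other kept cells, and 22.2% and 33.3% of the thinned macrophages had a UMI of it against 1.81% and 9.09% of the CD8 T cells. Whether RNA from other cells supplied these UMIs was not tested.

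Inhibitory receptors were higher in the TSK cells. Of 13 measured receptors, 2 were 2-fold higher and none 2-fold lower, 12 of 13 lay above the median ratio of all genes, and their median log2 ratio was 0.57. Their summed level was 946 CPM (WT) and 1307 CPM (TSK) (log2 ratio 0.47, 0.34 to 0.59). Per cell, the median was 7.78 and 12.2 UMIs of these receptors per 10000 UMIs. Restricted to the 95 WT and 80 TSK cells of 3000 to 6000 UMIs, among which the WT cells were still deeper (medians 5230 and 3713 UMIs), the log2 ratio was 1.01.

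Pdcd1, the gene for PD-1 (chr1:94038305-94052553, minus strand), was at 96.0 CPM in WT (189 UMIs, 90 cells) and 199.7 CPM in TSK (107 UMIs, 59 cells), a log2 ratio of 1.06 (0.70 to 1.41). It was higher in the TSK cells under each alternative, from 0.66 to 1.97. Thinned to 1000 UMIs, which left out 1 shallower TSK cell, 8.66% of WT cells (5.63 to 12.6%) and 18.3% of TSK cells (12.5 to 25.4%) had a Pdcd1 UMI, and unthinned 32.5% and 38.3% did. No thinned macrophage had Pdcd1, 0 of 229 and 0 of 263, which allow shares of up to 1.31% and 1.14%. Cd101, an immunoglobulin-family receptor, was at 19.8 and 44.8 CPM (log2 ratio 1.18, 0.38 to 1.95). Over all selected cells the difference was not shared by each receptor, but this depended on the cells compared. Ctla4, which competes with CD28 for its ligands, was at 396 and 480 CPM (log2 ratio 0.28), Lag3, a receptor for MHC class II, at 97.5 and 108 CPM (0.15), and Vsir, the gene for VISTA, at 63.0 and 70.9 CPM (0.17), and the Lag3 and Vsir intervals included 0. In cells of 3000 to 6000 UMIs the log2 ratios of Ctla4, Lag3 and Vsir were 0.84, 0.91 and -0.09. Thinned to 1000 UMIs they were 0.79, -0.31 and 0.33.

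Taken as a set, Pdcd1, Havcr2, Lag3, Tigit or Entpd1 had a UMI in 24.9% of WT cells (19.9 to 30.4%) and 37.3% of TSK cells (29.6 to 45.4%) thinned to 1000 UMIs. Unthinned, the shares were 66.8% and 61.0%, in the reverse order of the libraries. Of the thinned macrophages, 23.1% and 25.1% had a UMI of this set, which includes Entpd1 and Havcr2, genes that macrophages also use, so the set is not particular to T cells.

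Among 18 costimulatory and activation receptors, only Tnfrsf9 reached 2-fold, and the median log2 ratio was 0.15. Tnfrsf9 encodes 4-1BB, a receptor that appears after T cell receptor stimulation. The gene (chr4:150914562-150946102, plus strand) was at 51.8 CPM in WT (102 UMIs, 51 cells) and 205 CPM in TSK (110 UMIs, 42 cells), a log2 ratio of 1.99 (1.58 to 2.39), and from 1.34 to 2.42 under the alternatives. Thinned to 500 UMIs, 3.61% of WT and 7.79% of TSK cells had a UMI of it, against 0.435% and 0.758% of macrophages. Icos, a costimulatory receptor of activated T cells, was at 443 and 614 CPM (log2 ratio 0.47, 0.29 to 0.66). Ly6a, an activation antigen, was at 517 and 575 CPM, Cd44, the hyaluronan receptor, at 389 and 384 CPM, and Il2rb, the beta chain of the receptors for IL-2 and IL-15, at 417 and 357 CPM, and their intervals included 0.

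**Figure D3:**
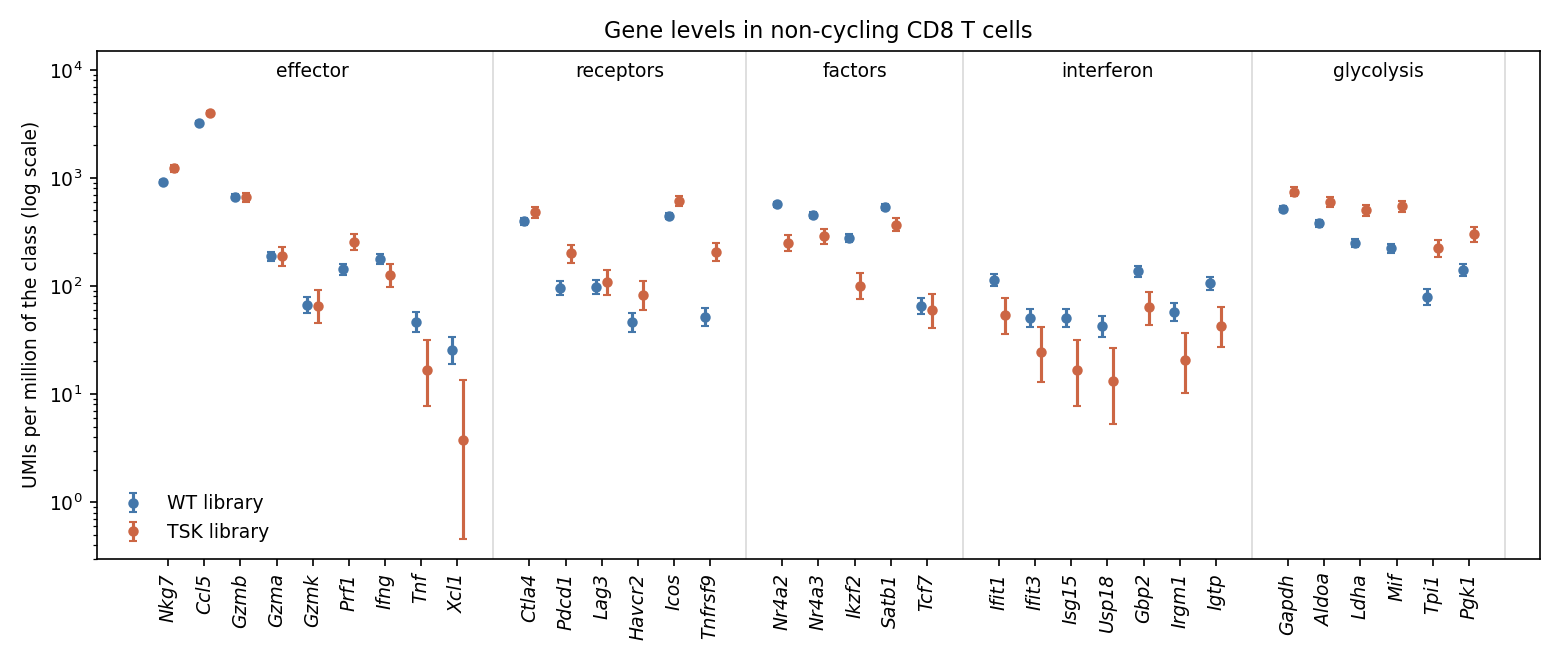
Points give the level of each gene in CPM of the selected cells on a logarithmic axis, in the WT (277 cells) and TSK (154 cells) libraries, with 95% exact Poisson intervals for counting error only. Gzmb was at 669.6 and 659 CPM, Pdcd1 and Tnfrsf9 were higher in the TSK library, and Nr4a2 and Ikzf2 were lower. The 7 interferon-stimulated genes shown are those of 46 that were 2-fold lower, so their direction follows from the choice. Iigp1, which was 2-fold higher, is not drawn.

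Transcription factors had no common direction. Of 20 factors of activated and exhausted T cells, 1 was 2-fold higher and 2 were 2-fold lower, with a median log2 ratio of 0.03. Nr4a2, a nuclear receptor induced by T cell receptor signals (chr2:57106830-57124003, minus strand), was at 568 CPM in the WT cells (1117 UMIs) and 252 CPM in the TSK cells (135 UMIs), a log2 ratio of -1.17 (-1.44 to -0.91). Its relative Nr4a3 was at 455 and 287 CPM (log2 ratio -0.66, -0.92 to -0.41). Both were lower under each alternative. Ikzf2, which encodes Helios, was at 275 and 101 CPM (log2 ratio -1.45, -1.88 to -1.04), with 542 WT UMIs (70 cells) and 54 TSK UMIs (19 cells). It was under 2-fold in cells of 3000 to 6000 UMIs (log2 ratio -0.70) and in cells thinned to 1000 UMIs (-0.84). Hif1a, the oxygen-regulated factor, was at 330.2 and 493 CPM (log2 ratio 0.58, 0.37 to 0.79), and Rbpj, which transmits Notch signals, at 324 and 439 CPM (0.44). Irf8, a factor of activated T cells and myeloid cells, was at 31.5 and 69.1 CPM (log2 ratio 1.13).

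Genes of naive, memory and stem-like T cells were lower in sum, at 2946 and 2468 CPM (log2 ratio -0.26, -0.34 to -0.17), and 12 of 16 were below 0. Over all genes, 3083 of 5019 were above 0. Ly6c2, a surface antigen of memory T cells, was at 1059 and 780.2 CPM (log2 ratio -0.44), and Satb1, a chromatin organizer of T cells, at 534 and 370 CPM (log2 ratio -0.53). The latter depended on the cells compared, with a log2 ratio of up to 0.25. Foxp1 and Foxo1, forkhead factors of resting T cells, had log2 ratios of -0.48 and -0.38. These also depended on the cells compared. In cells of 3000 to 6000 UMIs Foxp1 and Foxo1 were at -0.38 and 0.06, and thinned to 1000 UMIs at -0.44 and 0.03. Foxp1 was at -0.11 in cells without any Mki67 or Top2a UMI. Klf2, which controls exit from tissues, was at 31.5 and 110 CPM (log2 ratio 1.81), but 50 of its 59 TSK UMIs lay in the cell with 1175 fibroblast marker UMIs, and without the top cell of each library the log2 ratio was -0.79. Tcf7, the factor of stem-like CD8 T cells, which was named after its values were seen, had a log2 ratio of -0.13 with an interval that included 0.

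No gene of the lists for tissue residence (8 genes), chemokine and migration receptors (14), NK receptors (8) or TGF-beta receptors and responses (16) reached 2-fold. Their median log2 ratios were -0.09, 0.06, 0.20 and -0.10. Cd69, which keeps T cells in tissue and is an early activation antigen, was at 192 and 116 CPM (log2 ratio -0.73, -1.14 to -0.34), while Cxcr6, a chemokine receptor of resident cells, was at 182 and 222 CPM (0.28, -0.03 to 0.59). Smad7, the inhibitor of TGF-beta receptors, was at 471 CPM (928 UMIs) and 261 CPM (140 UMIs), a log2 ratio of -0.85 (-1.12 to -0.59). Hcst, the DAP10 adapter of the NKG2D receptor, was at 412 and 541 CPM (log2 ratio 0.40), and Klrk1, the receptor itself, at 207 and 213 CPM. Of 21 genes of apoptosis and survival, only Pmaip1, the pro-apoptotic NOXA, reached 2-fold, at 63.5 and 31.7 CPM (log2 ratio interval -1.83 to -0.26), and the median was 0.13.

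Interferon-stimulated genes were lower in the TSK cells in sum but not in the median cell. Of 46 genes, 7 were 2-fold lower (Gbp2, Isg15, Usp18, Irgm1, Igtp, Ifit3 and Ifit1) and 1 (Iigp1) was 2-fold higher, only 2 lay above the median ratio of all genes, and their median log2 ratio was -0.34. The summed level was 5853 and 4993 CPM (log2 ratio -0.23, -0.29 to -0.17). Per cell, the median was 37.0 UMIs of these genes per 10000 in the WT cells and 41.6 in the TSK cells, in the opposite direction. The 90th percentile was 133 in the WT and 100.3 in the TSK cells. The tenth of cells with the most held 36.8% of the WT and 25.4% of the TSK interferon-stimulated UMIs, and the mean of the remaining cells was 41.5 and 40.9 per 10000. The lower sum thus lay in the cells with the highest levels.

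Isg15, a ubiquitin-like modifier, was at 50.8 CPM in WT (100 UMIs, 60 cells) and 16.8 CPM in TSK (9 UMIs, 7 cells), a log2 ratio of -1.60 (-2.77 to -0.61). Ifit1, which binds viral RNA, was at 114 and 54.1 CPM (log2 ratio -1.08, -1.69 to -0.52). Gbp2, a guanylate-binding protein, was at 137 and 63.5 CPM (log2 ratio -1.11), and the interferon-inducible GTPases Irgm1 and Igtp had log2 ratios of -1.50 and -1.30. Genes with the most UMIs in the list did not share this: Ifi27l2a was at 534 and 618 CPM, Ly6e at 554 and 559.9 CPM and Epsti1 at 386 and 388 CPM. Iigp1 was at 32.5 and 80.3 CPM (log2 ratio 1.30), but -0.07 without the top cell of each library. Reads of closely related genes, as among the Ifit, Gbp, H2, Gzm and Klr families, may be split or lost in the counting.

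The promoters of the lower genes are shown because they hold the motif by which interferon-activated factors bind DNA. In the 250 bases before the transcription start (RefSeq, GRCm38.p6), the letters GAAA repeated after any 2 bases, on either strand, the core of the interferon-stimulated response element, occurred in 3.04% of 27025 promoters and in 3.38% of the promoters of the tested genes, and in 19 of the 36 matched interferon-stimulated genes (52.8%). All 6 of the 2-fold lower genes that could be matched held it (Usp18 could not be matched). Capitals mark the motif, in the sense direction of the gene or, as TTTC repeated after any 2 bases, on the opposite strand, and overlapping matches run together. The windows are Isg15 at chr4:156200819-156201068 on the minus strand, Ifit1 at chr19:34640639-34640888 on the plus strand and Gbp2 at chr3:142620413-142620662 on the plus strand.
Isg15: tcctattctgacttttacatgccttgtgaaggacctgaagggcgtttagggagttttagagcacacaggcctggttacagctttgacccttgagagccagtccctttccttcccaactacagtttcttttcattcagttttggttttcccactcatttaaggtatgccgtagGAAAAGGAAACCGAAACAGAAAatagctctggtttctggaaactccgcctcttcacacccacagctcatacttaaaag
Ifit1: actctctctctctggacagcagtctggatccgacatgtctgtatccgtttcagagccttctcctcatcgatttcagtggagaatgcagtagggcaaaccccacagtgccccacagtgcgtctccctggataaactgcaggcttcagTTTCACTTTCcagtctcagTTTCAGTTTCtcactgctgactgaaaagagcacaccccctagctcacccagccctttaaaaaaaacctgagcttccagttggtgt
Gbp2: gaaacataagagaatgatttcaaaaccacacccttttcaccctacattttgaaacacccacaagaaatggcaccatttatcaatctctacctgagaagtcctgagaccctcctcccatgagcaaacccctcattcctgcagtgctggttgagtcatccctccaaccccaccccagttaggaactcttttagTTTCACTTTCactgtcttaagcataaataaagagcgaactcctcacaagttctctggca
In Isg15 the matches began 78, 72 and 66 bases before the start, in Ifit1 104 and 85 bases, and in Gbp2 59 bases. A match describes the letters only and does not show that a factor was bound.

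Genes of MHC class I presentation were lower in sum, at 9523 and 8074 CPM (log2 ratio -0.24, -0.29 to -0.19), with none of 21 at 2-fold and a median of -0.14. B2m, the invariant light chain, was at 3022 CPM (5949 UMIs) and 2173 CPM (1164 UMIs), a log2 ratio of -0.48 (-0.57 to -0.39). The heavy chains H2-K1 and H2-D1 were at 1907 and 1460 CPM (-0.39) and at 1318 and 1055 CPM (-0.32). H2-Q7, a non-classical heavy chain, had a log2 ratio of -0.09 with an interval that included 0.

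Genes of glycolysis and the hypoxia response were higher in the TSK cells. Of 24 genes, 5 were 2-fold higher (Tpi1, Mif, Pfkl, Slc16a3 and Pgk1) and none 2-fold lower, 19 lay above the median ratio of all genes, and their median log2 ratio was 0.69. The summed level was 3187 and 5282 CPM (log2 ratio 0.73, 0.66 to 0.79), and the median cell had 27.6 and 36.5 UMIs of them per 10000. Without cells over 10000 UMIs the log2 ratio of the sum was 0.57, and in cells of 3000 to 6000 UMIs it was 0.84.

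Tpi1, triose phosphate isomerase, was at 79.3 CPM in WT (156 UMIs, 92 cells) and 222 CPM in TSK (119 UMIs, 56 cells), a log2 ratio of 1.49 (1.13 to 1.84). Ldha, which turns pyruvate into lactate, was at 251 and 500.2 CPM (log2 ratio 0.99, 0.78 to 1.21), and Gapdh and Aldoa, enzymes of the middle of the pathway, at 516 and 747 CPM (0.53) and at 381 and 601 CPM (0.66). Slc16a3, the lactate exporter, was at 15.2 and 39.2 CPM (log2 ratio 1.36). Pgk1, phosphoglycerate kinase, was at 141 and 302 CPM (log2 ratio 1.10), and Mif, a cytokine gene of the hypoxia response, at 223 and 545 CPM (1.29). The TSK cell with 16 cancer marker UMIs held 39 of the 162 Pgk1 and 64 of the 292 Mif UMIs, and without cells holding markers of another type the log2 ratios were 0.66 and 0.94.

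The Pgk1 promoter is shown as an example of this list, because its 250 bases hold the letters ACGTG, the core of the hypoxia response element. These 5 letters, on either strand, were common: they occurred in 16.6% of all promoters, in 23.7% of those of the tested genes, and in 9 of 21 matched genes of the list (42.9%), including 2 of the 5 that were 2-fold higher. Capitals mark ACGTG or, on the opposite strand, CACGT, in the window chrX:106186850-106187099 on the plus strand (RefSeq, GRCm38.p6).
Pgk1: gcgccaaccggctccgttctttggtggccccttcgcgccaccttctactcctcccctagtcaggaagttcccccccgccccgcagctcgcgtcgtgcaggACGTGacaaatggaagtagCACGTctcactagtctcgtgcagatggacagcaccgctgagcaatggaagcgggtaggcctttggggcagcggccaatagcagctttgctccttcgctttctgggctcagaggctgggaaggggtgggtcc
The matches began 150 and 131 bases before the start.

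Nuclear genes of the respiratory chain and ATP synthase were also higher, nearly without exception. Of 44 genes, 43 had a log2 ratio above 0 and above the median of all genes, while 3083 of all 5019 genes were above 0. In this list 3 were 2-fold higher (Atp5k, Uqcr11 and Uqcr10) and none was 2-fold lower. The median log2 ratio was 0.56, and the summed level was 6725 and 10021 CPM (log2 ratio 0.58, 0.53 to 0.62). Atp5k, a subunit of ATP synthase, was at 146 and 362 CPM (log2 ratio 1.31, 1.04 to 1.58). Uqcr10 and Uqcr11, subunits of complex III, were at 103 and 224 CPM (1.13) and at 76.2 and 162 CPM (1.09). The subunits of complex IV Cox7c and Cox4i1 had log2 ratios of 0.76 and 0.70. In the same libraries ribosomal protein genes, which are likewise short and abundant transcripts, had a log2 ratio of 0.50, and mitochondrially encoded transcripts -0.20, and the part of transcript composition in this result was not tested.

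Genes of the cell cycle that the selection did not use had a median log2 ratio of 0.37. Of 22, 2 were 2-fold higher: Dut, which clears dUTP, at 25.4 and 87.7 CPM (log2 ratio 1.79, 1.18 to 2.39), and Tubb5, a beta tubulin, at 84.3 and 175 CPM (1.06). Pcna, the DNA polymerase clamp, went the other way, at 163 and 110 CPM (log2 ratio -0.56, -0.99 to -0.16). Hmgb2 and Hmgb1, chromatin proteins, had log2 ratios of 0.34 and 0.30. The summed list had a log2 ratio of 0.39, and of 0.29 in CD8-negative T cells, 0.83 in cycling CD8 T cells and 1.01 in macrophages. The selection limit for Mki67 and Top2a is a fixed UMI count, which may exclude fewer dividing cells in the shallower TSK library. Its part in this result was not tested.

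Immediate early and heat shock genes, which dissociation of tissue is known to induce, gave no common direction. Of 36 genes, 3 were 2-fold higher and 1 was 2-fold lower, with a median log2 ratio of -0.19. Jun was at 97.5 and 261 CPM (log2 ratio 1.42) and Fos at 103 and 205 CPM (1.00), both subunits of AP-1. The TSK cell with 1175 fibroblast marker UMIs held 70 of the 140 Jun and 53 of the 110 Fos UMIs, and without cells holding markers of another type the log2 ratios were 0.82 and 0.49. Ier3, an early response gene, was 2-fold higher on 31 TSK UMIs but had a log2 ratio of -0.56 in thinned cells. Ppp1r15a, a phosphatase subunit of the stress response, was at 122 and 59.7 CPM (log2 ratio -1.03), and Junb at 1683 and 1366 CPM (-0.30).

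**Figure D4:**
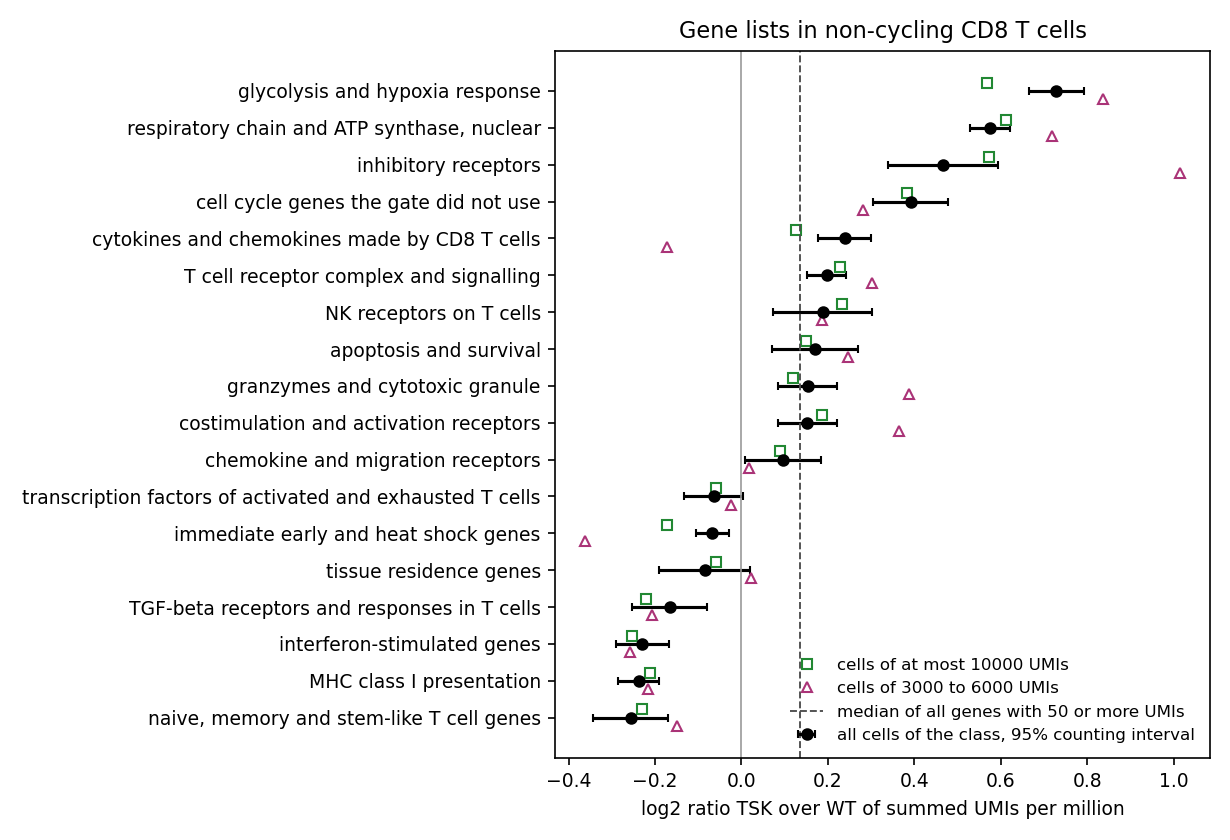
Each row is a gene list, with the log2 ratio of TSK to WT of its summed CPM on the x axis (black points, 95% counting intervals), and with the same ratio in cells of at most 10000 UMIs (squares) and of 3000 to 6000 UMIs (triangles). Glycolysis (0.73), respiratory chain (0.58) and inhibitory receptor (0.47) genes lay to the right of the dashed median of all genes (0.136), and the lists for interferon, MHC class I and naive or memory genes to the left.

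Beyond the lists, the genes furthest apart were taken by rule. Among genes with at least 100 UMIs and a UMI in at least 10% of the cells of the higher library, the highest ratio belonged to Mt1, a metallothionein that binds zinc and copper (chr8:94179082-94180327, plus strand), at 87.4 CPM in WT (172 UMIs, 46 cells) and 734 CPM in TSK (393 UMIs, 43 cells), a log2 ratio of 3.07 (2.81 to 3.34). Its relative Mt2 was at 60.5 and 231 CPM (1.94). Mt1 was also abundant outside the class, at 814 and 1525 CPM in the other kept cells. In the TSK library 137 of its 393 UMIs lay in the cell with 16 cancer marker UMIs, and in the WT library 81 of 172 lay in a cell with 1124 fibroblast marker UMIs. Without the top cell of each library its log2 ratio was 3.37.

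The other genes of that ranking had log2 ratios from 1.49 to 2.31. Emp1, a membrane protein, had 2.31, but 0.80 without the top cells. Fn1, which encodes fibronectin, had 1.66 and Nedd4, a ubiquitin ligase, 1.77, and both were higher in the other kept cells than in the CD8 T cells. Genes that were at least as high in the CD8 T cells as in the other cells included Itgav, the alpha-V integrin that binds matrix ligands and activates latent TGF-beta, at 136 and 347 CPM (log2 ratio 1.36, 1.08 to 1.63). They also included Tsc22d4, a leucine zipper protein, at 80.3 and 215 CPM (1.42), and Ifitm1, an interferon-inducible membrane protein, at 131 and 284 CPM (1.12).

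Of the lower genes, Mthfs, a folate enzyme, had 209 WT and 11 TSK UMIs, at 106 and 20.5 CPM (log2 ratio -2.37, -3.40 to -1.50). Hexim1, an inhibitor of transcription elongation, was at 197 and 74.7 CPM (log2 ratio -1.40). Cdk8, a kinase of the Mediator complex, had a log2 ratio of -1.32, and was likewise lower in the other kept cells of the TSK library, at 7094 and 1120 CPM. Pecam1, an adhesion molecule of endothelium that some T cells carry, was at 68.1 and 26.1 CPM (log2 ratio -1.38). Without cells holding 3 or more endothelial or dendritic marker UMIs it was at 0.02. Pecam1 is itself among these endothelial markers and held 134 of the 149 WT UMIs of that list, in 58 cells. That setting therefore removes cells high in Pecam1 and cannot show where its UMIs came from. Cxcl9 had 203 WT and 5 TSK UMIs, of which 190 lay in the WT cell with 1124 fibroblast marker UMIs.

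Some of these lists and genes had ratios in the same direction in other cells of the same libraries, where the median log2 ratio of all genes was 0.014 in CD8-negative T cells and 0.287 in macrophages. Glycolysis genes had a log2 ratio of 0.45 in CD8-negative T cells and 0.46 in macrophages, and respiratory chain genes 0.47 and 0.46. Mt1 had 3.77 and 1.37, and Nr4a2 -0.76 and -1.11. The inhibitory receptors had 0.08 in CD8-negative T cells, with an interval from -0.09 to 0.25, 0.26 without cells holding markers of another type, and 0.31 (0.12 to 0.49) at 10000 UMIs or fewer. Pdcd1 (0.79, 0.23 to 1.33) and Tnfrsf9 (0.54) were also above 0 there. Interferon-stimulated genes had 0.39 (0.31 to 0.48) in CD8-negative T cells and -0.43 in macrophages. In the cycling CD8 T cells, which were few (42 WT and 21 TSK, with a median of all genes of 0.072), glycolysis and respiratory chain genes had 0.67 and 0.78. The inhibitory receptors went the other way there, at -1.06 (-1.37 to -0.76), as did Pdcd1 at -1.15, and Tnfrsf9 was at -0.72 with an interval (-1.56 to 0.04) that included 0. The T cell receptor genes were at -1.07 in these cells, and 1 cell held 56176 of their 210394 TSK UMIs. With 1 library per genotype these differences between classes were not tested.

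**Figure D5:**
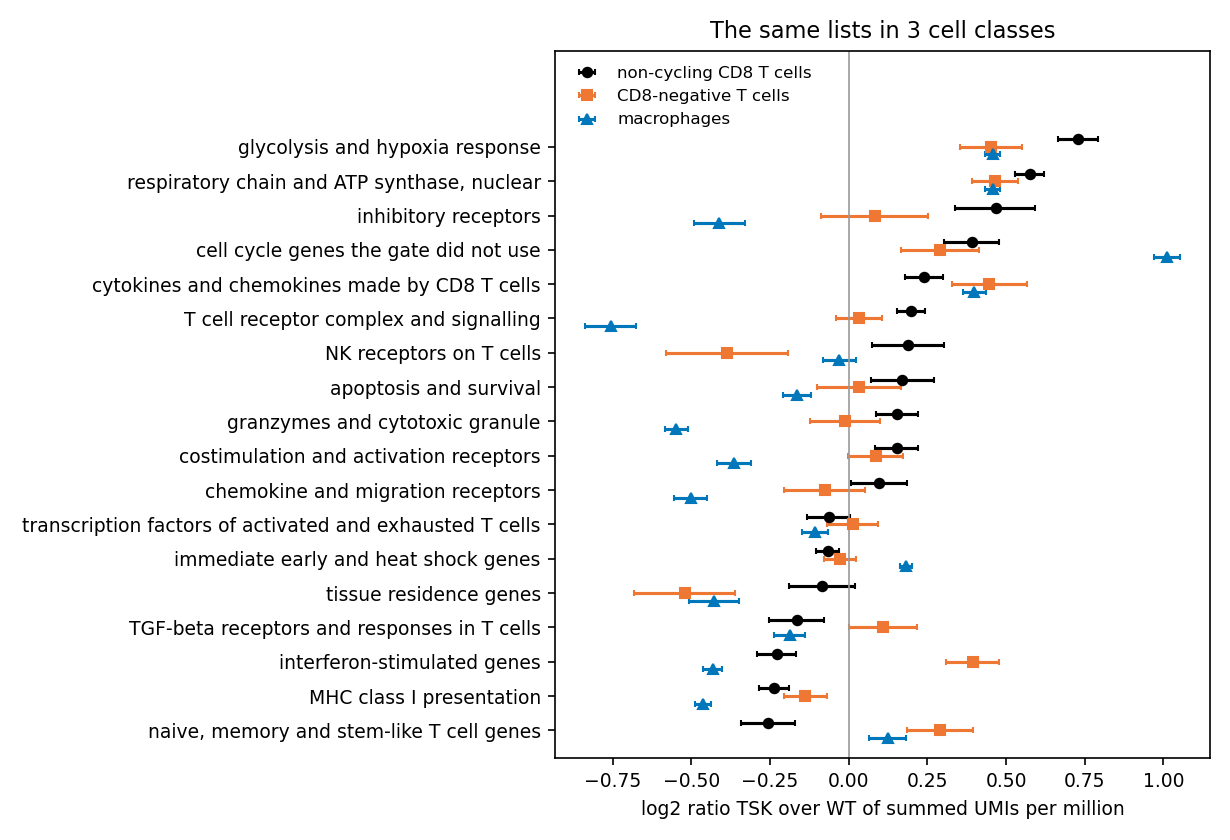
The log2 ratio of TSK to WT of each gene list is plotted for non-cycling CD8 T cells (black circles), CD8-negative T cells (orange squares) and macrophages (blue triangles), with 95% counting intervals. In that order of classes, glycolysis genes lay at 0.73, 0.45 and 0.46 and respiratory chain genes at 0.58, 0.47 and 0.46. The interferon-stimulated genes lay at -0.23, 0.39 and -0.43. The median of all genes, which is not drawn, was 0.136, 0.014 and 0.287. For glycolysis and respiratory chain genes, the macrophage values were thus closest to their median. For the interferon-stimulated genes, the macrophage value was furthest from it.

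Variable segments of the T cell receptor were seen in few cells, since these libraries read the ends of transcripts. A Trbv UMI was found in 67 of 277 WT cells (24.2%) and 17 of 154 TSK cells (11.0%), which differ in depth. The WT cells held 14 of 35 Trbv segments, with Trbv29 and Trbv3 in 13 cells each and Trbv15 in 10. The TSK cells held 8, with Trbv2 in 6 cells and Trbv13-1 in 4. Trav16 was found in 20 of the 61 WT cells with a Trav UMI and Trav16n in 4 of 12 TSK cells, and these near-identical segments cannot be told apart with certainty. Whether a segment marked an expanded clone was not tested.

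As checks of the labels, Xist had 920 and 290 UMIs and the Y-linked genes Ddx3y, Eif2s3y, Kdm5d and Uty had 0 in the selected cells of both libraries. Among all kept cells none of these Y-linked genes had more than 4 UMIs in a library. Fbn1, the altered gene, had 95 and 11 UMIs in 6 and 5 of the selected cells, and its UMIs near the end of the transcript do not show the duplication.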

How the data were processed

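Single-cell 3' libraries (10x Genomics) were made from pooled tumors, 1 per genotype. The authors aligned reads to mm10 (GRCm38) and deposited filtered matrices of UMI counts per gene and barcode, not normalized, for 32285 genes. The deposited matrix headers name Cell Ranger 7.1.0 and the submitters' processing notes 7.1.1. Whether intronic reads were counted is not given in the sources used here.

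Cells were filtered and selected as stated at the opening. No doublet caller was run, and an alternative left out cells with 3 or more UMIs of another type's markers. The 2 libraries had no replicates, so no test was made. UMI sums per library were given exact Poisson intervals, shares exact binomial (Clopper-Pearson) intervals (a share of 0, the limit of 3 counts of the total) and ratios exact conditional intervals, all at 95%. CPM used the total of the selected cells. Cells were thinned to 500 UMIs, or to 1000 where stated, without replacement. Coordinates came from GENCODE M21, which held 32235 of the 32285 gene identifiers, and promoters from RefSeq, which matched 4020 of the 5019 tested genes.

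Named genes were, for each list, up to 4 with the highest level and those at or past 2-fold; the 10 with the highest and lowest ratios among genes with at least 100 UMIs, at least 10 in each library and a UMI in at least 10% of the cells of the higher library, over all genes and among those at least as high in the CD8 T cells as in other cells; and up to 5 per direction with under 10 UMIs in 1 library. Mitochondrial, ribosomal protein and receptor variable genes were left out of these rankings, and some named items are not reported here. Members, lists and rules were chosen with earlier results of these data known. Alternatives are given in the closing section. Restricting depth to 3000 to 6000 UMIs, leaving out abundant transcripts, endothelial or dendritic marker cells, or each gene's top cell were chosen after seeing the data. Scripts (Python 3.11.15) were tested on simulated data. Intervals came from scipy 1.17.1, tables from pandas 2.3.3 with numpy 2.4.6, and plots from matplotlib 3.10.9.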

Additional observations from a re-analysis of the deposited data

Results flagged for a closer look

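Of the 18 gene lists, 4 went in opposite directions in non-cycling CD8 T cells and in CD8-negative T cells, with intervals for counting error on opposite sides of 0 in each class, and the difference between the classes was not tested. In CD8-negative T cells, interferon-stimulated genes had a log2 ratio of 0.3934, genes of naive, memory and stem-like T cells 0.2914, NK receptors -0.3863, and TGF-beta receptors and responses 0.1085. In the non-cycling CD8 T cells the same lists had -0.23, -0.26, 0.19 and -0.17. The 0.19 of the NK receptors lay close to the median of all genes (0.136), so that list is not called higher there. With totals that left out the 6 abundant transcripts it was -0.0072. Without cells holding markers of another type (98 WT and 74 TSK CD8-negative T cells), the values in CD8-negative T cells were 0.27, 0.17, -0.16 and -0.01, and in cells of at most 10000 UMIs (105 and 85 cells) they were 0.41, 0.00, -0.28 and -0.01. The opposite directions of the interferon-stimulated genes were thus kept in both subsets, while the TGF-beta list was near 0 in CD8-negative T cells in both, and the memory list in the second. For the NK receptors in CD8-negative T cells, the interval in the first subset (-0.37 to 0.05) included 0.

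Among barcodes that failed the cell filter, 1 WT and 2 TSK barcodes met the selection for non-cycling CD8 T cells. They entered no comparison.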

How the results depend on the processing

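No paired analysis was possible because each genotype had 1 library, and for the same reason no replicate could be left out. Directions of the log2 ratios of single genes and lists mostly held: of 2040 gene values, 113 had the other sign, 24 of them for genes at or past 2-fold with an interval that left out 0, and of 252 list values, 12 had the other sign, 8 of them for lists whose interval left out 0. Without those 24 and 8, 261 gene values and 65 list values lay outside the counting interval of the value reported, some closer to 0 (115 and 32) and some further from it (124 and 29). For the share of non-cycling CD8 T cells, the log2 ratio was -1.36 with cells thinned to 1000 UMIs before the selection, -0.13 among all T cells and -1.26 without cancer marker cells. The numbers of genes 2-fold higher and lower were 113 and 66 in cells of 3000 to 6000 UMIs, 76 and 54 with at least 100 UMIs per gene, and 34 and 22 in thinned cells, where fewer genes could be compared (2129, 3231 and 1210). They were 111 and 207 with totals that left out 6 abundant transcripts, and 137 genes were higher with the median ratio at 0. The number of lists at least 0.25 below the median of all genes was 2 in thinned cells.

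With totals that left out the 6 transcripts, the log2 ratio became -0.043 for granzymes, -0.043 for costimulation, -0.10 for chemokine receptors, -0.0072 for NK receptors and -0.025 for apoptosis genes. Chemokine receptors were also at -0.039 with the median ratio at 0. Cytokines were at -0.17 in cells of 3000 to 6000 UMIs, and immediate early genes at 0.019 without any Mki67 or Top2a UMI. Settings without deep cells or without cells of another type's markers reversed genes held by single cells. With at most 10000 UMIs per cell, Cxcl9 was at 2.42, Fbn1 at 2.68 and Klf2 at -0.64. Without cells holding markers of another type, Cxcl9 was at 2.31, Fbn1 at 2.31, Klf2 at -0.52 and Mmp3 at -0.11. In cells of 3000 to 6000 UMIs, Cxcl9 was at 2.20, Fbn1 at 0.62, Klf2 at -1.63, Fos at -0.21, Iigp1 at -0.28 and Ndrg1 at -0.23. Without endothelial or dendritic marker cells, Cxcl9 was at 2.51, Fbn1 at 3.65 and Pecam1 at 0.024. Pecam1 was not held by a single cell, but is itself among the markers of that setting. Without the top cells, Cxcl9 was at 0.18, Iigp1 at -0.066, Klf2 at -0.79 and Mmp3 at -0.44. Klf2 was at -0.22 with cells weighted equally and at -0.28 in thinned cells, Ier3 at -0.56 in thinned cells, and Fbn1 at 0.077 without any Mki67 or Top2a UMI. Beyond these constructions the cause was not tested. Depth limits the rest: a gene with 50 UMIs in all has a wide counting interval, and 154 TSK cells with 535764 UMIs set the precision of each ratio.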
